A study of Homo sapiens with 30 samples.

Results

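The cells of this experiment were BEAS-2B, a human bronchial epithelial line made immortal in culture and grown on porous inserts at the air-liquid interface, after 10 mg of whole birch pollen had been dispersed over them with pressured air. The comparison concerned the pollen-exposed cells alone, 3 arrays at 6h50 min against 3 arrays at 2h25 min after exposure, that is 6 of the 30 arrays of the series. The members were taken by their labels for condition and time, and each array held RNA of 1 sample measured with one-colour Agilent gene expression probes. The samples labelled air at the same 2 times, 3 arrays each, were mock exposed in the same chamber without pollen reaching the cells and serve as the background measured the same way. Both exposures share the cell line, the inserts and the stay at the air-liquid interface before the start. A line that is immortalized, lacks cilia and mucus and is cultured without immune cells models only the epithelial side of the airway.

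The level of a gene was the log2 of its processed spot intensity minus the 75th percentile of the array over 33873 probes, so that a level of 0 lies at that percentile. A difference of 1 between levels is a doubling. A gene is said here to have risen or fallen when the limma fit over all 30 arrays gave a Benjamini-Hochberg adjusted p under 0.05 together with a ratio of 1.1-fold or more between the times. The SE beside a change comes from that fit, and the mean ± SD is over 3 arrays. The 75th percentile lay between 1405 and 1740 intensity units on the pollen arrays of 2h25 min and between 613 and 860 on those of 6h50 min, and 52.7% to 57.4% and 44.7% to 48.8% of probes were well above background. All 6 arrays of 6h50 min, pollen and mock, were on 1 slide scanned apart from the arrays of 2h25 min, which were on 2 other slides. For the change over time, the time and the slide with its scan cannot be told apart. Pollen and mock arrays of a time lay on the same slides, so the difference between the pollen change and the mock change is balanced for the slide. Blocks of dim spots covered parts of 2 mock arrays of 6h50 min and touched 1427 tested probes, 4.45% of all. On the pollen arrays of both times 0 tested probes lay in such a block. The fit shares the spread over all 30 arrays, so for the touched probes the dim mock spots also enter the SE of the pollen change.

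All 8 epithelial markers, among them the keratins KRT8 and KRT18 and the adhesion molecules EPCAM and CDH1, were well above background on all 6 pollen arrays. Their summed level went from 7.82 to 8.23 at 2h25 min and from 7.79 to 8.17 at 6h50 min. Of 9 mesenchymal markers 7 were above background on all 6 arrays. Their summed level was 6.71 to 6.91 at 2h25 min and 6.02 to 6.27 at 6h50 min, so that the groups did not overlap. A summed level is the log2 of summed intensities, in which bright members weigh most. VIM alone had 6.63 to 6.83 and then 5.91 to 6.14, and it fell in mock too, with a change of -0.52. Of the 7 tested 3 fell in pollen (42.9%, against 20.6% of all genes), 2 of them in mock too, and 4 were not called. The collagen COL3A1 and LUM were not above background on any pollen array. Of the immune markers on the array CD14 and PTPRC were above background on all 6 arrays and the mast cell gene TPSAB1 on none. The summed level of the immune markers was -0.33 to 0.39 at 2h25 min and -0.35 to -0.09 at 6h50 min, with overlap. Of the 4 tested 2 fell (50%, against 20.6% of all genes), among them PTPRC by 1.47, with a second probe at 0.06. In mock all 4 fell, PTPRC by 1.09. Of 4 endothelial markers CDH5 and VWF were above background on all 6 arrays and PECAM1 on none, with a summed level of -3.48 to -2.95 and then -4.20 to -3.90, without overlap, and CDH5 fell by 1.13. The part of these differences in the results was not tested. All samples were cultures of BEAS-2B alone, so the markers describe RNA levels of this line and not the shares of cell types.

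Epithelial cells answer a mechanical or chemical stimulus within minutes by transcribing immediate early genes without new protein synthesis. Most of these encode transcription factors of the AP-1, EGR, NR4A and KLF families, whose RNAs are short-lived. The MAP kinase cascade that feeds them is restrained by its own products, the dual specificity phosphatases, the Sprouty proteins and ERRFI1, and cytokine signals are restrained by the SOCS proteins. Stretch and attachment act through the SRF and YAP pathways, whose classical target is CCN2. Chemokines, growth factors of the EGF family, genes of ribosome assembly and genes of cell division commonly follow such a stimulus over hours.

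The promoters of 4 genes that fell, chosen from the gene lists after their values were seen, are printed here to show where the letters of known motifs occur. Each line holds the 250 bases before the start of the RefSeq gene, read 5′ to 3′ on the strand of the gene (GRCh38.p14). Capitals mark TGACGT, the core of the cAMP response element bound by CREB and ATF factors, and GGAATG, the core bound by the TEAD partners of YAP, on either strand. The FOSB window is chr19:45467746-45467995, plus strand, that of NR4A3 chr9:99821635-99821884, plus strand, that of FOS chr14:75278578-75278827, plus strand, and that of CCN2 chr6:131951373-131951622, minus strand.
FOSB: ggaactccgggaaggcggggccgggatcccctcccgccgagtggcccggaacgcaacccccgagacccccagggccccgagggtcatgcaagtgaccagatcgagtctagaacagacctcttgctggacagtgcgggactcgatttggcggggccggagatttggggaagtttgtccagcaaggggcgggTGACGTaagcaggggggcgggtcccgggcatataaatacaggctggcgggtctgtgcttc
NR4A3: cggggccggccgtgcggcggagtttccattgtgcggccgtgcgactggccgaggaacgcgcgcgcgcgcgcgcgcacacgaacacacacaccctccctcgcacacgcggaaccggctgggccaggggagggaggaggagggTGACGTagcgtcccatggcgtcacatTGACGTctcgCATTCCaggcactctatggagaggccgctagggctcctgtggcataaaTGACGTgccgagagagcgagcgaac
FOS: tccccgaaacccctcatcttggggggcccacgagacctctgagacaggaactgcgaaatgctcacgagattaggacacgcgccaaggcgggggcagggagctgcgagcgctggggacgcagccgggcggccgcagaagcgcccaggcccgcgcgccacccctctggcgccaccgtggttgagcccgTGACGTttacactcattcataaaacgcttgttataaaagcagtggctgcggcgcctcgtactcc
CCN2: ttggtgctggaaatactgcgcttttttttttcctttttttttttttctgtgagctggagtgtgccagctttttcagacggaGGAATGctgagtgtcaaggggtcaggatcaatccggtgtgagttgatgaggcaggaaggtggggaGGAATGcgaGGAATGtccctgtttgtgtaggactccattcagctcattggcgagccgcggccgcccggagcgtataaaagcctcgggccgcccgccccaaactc

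The letters TGACGT occurred once in the FOSB window, 60 bases before the start, once in the FOS window, 64 bases before it, and 3 times in the NR4A3 window. The CCN2 window held GGAATG 3 times, 169, 104 and 95 bases before the start. Over 27305 RefSeq promoters of this length 7.28% held TGACGT, 12% held GGAATG and 1.18% held a CArG box, the element bound by SRF. Among the 24 immediate early genes with a promoter in the table, 9 (37.5%) held TGACGT, 3 (12.5%) a CArG box and 1 GGAATG. Of the 12 of these that fell, 8 held TGACGT (66.7%). The same letters were in 4 of 28 promoters of feedback regulators (14.3%) and 7 of 43 of ribosome biogenesis genes (16.3%). Both strands were searched, where a motif lies on the other strand its reverse complement is in capitals, none of the matches overlap in the printed windows, and a match describes letters and not binding.

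Of 32100 tested probes, 3561 (11.1%) rose and 6383 (19.9%) fell in pollen-exposed cells from 2h25 min to 6h50 min. With each gene read from its probe of highest overall mean, 2816 of 24512 genes (11.5%) rose and 5052 (20.6%) fell, with a median change of -0.12. Of the genes that rose, the 3 arrays of 6h50 min all lay above the 3 of 2h25 min for 2700, and the 3 arrays lay below for 4775 of those that fell. In mock-exposed cells 2627 genes (10.7%) rose and 5595 (22.8%) fell over the same interval. Of the genes that rose in pollen 1765 (62.7%) also rose in mock, which is 67.2% of those that rose in mock, and of the genes that fell 3654 (72.3%) also fell in mock, 65.3% of the mock list. Across genes the changes had a Pearson correlation of 0.85 (24512 genes, which are not independent and share the slides and the base composition of their probes). The balance of rises and falls depended on the scaling. Rises made up 35.8% of the probes called here, 47.9% after quantile normalization, 49.7% after normexp background correction and quantile normalization, and 48.5% in the deposited table of values, while the median change of all probes moved from -0.11 to 0.02 under quantile normalization. The count of falls was 3843 among probes well above background on all 12 pollen and mock arrays of both times, a setting chosen after the data were seen. With the slide as a random block 1969 probes rose and 3533 fell, and 24 of the 112 genes followed through all settings lost their call, among them FOS, DUSP1, HBEGF, TNFAIP3, ERBB2, PLK2, CA9, DDIT3, MRTO4, UTP20, TSR1, HOXB9, ACTL8 and RNA5-8SN5. With the percentile taken over all probes of each array 1286 rose and 2673 fell, and 40 of the 112 genes lost their call. Among them were CCN1, EREG, NFKB1, RRP12, PES1, HSPA5, HSPD1 and RFC3. This setting kept pollen 55 min replicate 1, which was on another array design. The percentile of that array was 861.5 over its own probes and 1413.7 over the shared ones. On pollen 2h25 min replicate 1 it was 331.4 and 1405.1. The part of that array in the lost calls was not tested. With the replicate number as a block 50 of the 112 genes lost their call, among them ANGPTL4, EREG, UBE2C, RRP12, PES1, TNIP2, DBP, PER1, VCL and GBP2. The block was fitted on the compared arrays only, with fewer residual degrees of freedom than the 20 of the main fit. Without a block, the fit of the compared arrays ended the call of 16. Same-numbered pollen arrays of the 2 times did not deviate together (r of -0.09, 0 and 0.1).

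The downward shift was largest in dim probes. The median pollen change was -0.79 in the dimmest of 10 equal bins of tested probes and 0.08 in the brightest bin, and in mock it went from -0.89 to 0.07. Falls made up 30.4% of the dimmest bin and 10.5% of the brightest, rises 0.966% and 23.6%. Among the 19113 genes well above background on all 6 pollen arrays, 14.6% rose and 15.2% fell, with a median of -0.02. The median change of 7 detected spike-in RNAs, which are added in the same amount to each sample before labelling, was 0.47 in pollen and -0.29 in mock on the scaled levels. The part of overall brightness in these counts was not tested. The plot by brightness shows the same course in both exposures.

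**Figure D1:**
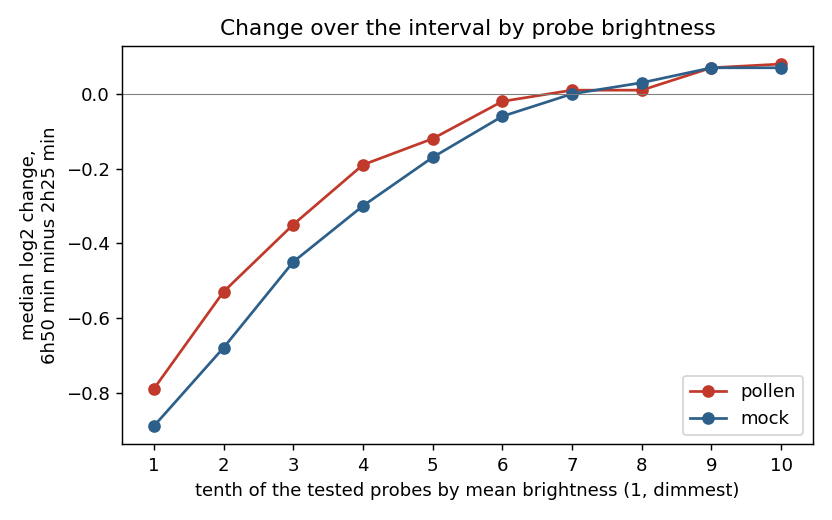
Median log2 change from 2h25 min to 6h50 min (vertical axis) in 10 equal bins of the 32100 tested probes ordered by mean brightness (horizontal axis, 1 the dimmest), for pollen and mock. The pollen points go from -0.79 in the dimmest bin to 0.08 in the brightest, and those of mock from -0.89 to 0.07.

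The immediate early transcription factors fell. Of 33 tested members 20 fell (60.6%, against 20.6% of all genes) and 0 rose, with falls of 0.43 to 3.43 on the log2 scale, and on each of the 20 the arrays of 6h50 min all lay below those of 2h25 min. The median change of the list was -0.97 in pollen and -0.27 in mock. In mock 8 of the 33 members fell, 7 of them among the 20, where 22.8% of all genes fell. The pollen change was below the mock change for 28 of the 33, and 7 (21.2%) had a difference between the changes at an unadjusted p under 0.05 in the downward direction, against 2.11% of all genes. At 2h25 min the median level of the list stood 0.49 above mock, and at 6h50 min 0.04. With the percentile over all probes of each array 11 members fell, where 9.11% of all genes did, and the list median was -0.46 after normexp and quantile normalization, -0.47 in the deposited table and -0.61 among probes above background on all 12 arrays.

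NR4A3, an orphan nuclear receptor, had levels of -1.42, -1.35 and -1.48 at 2h25 min and of -4.56, -4.82 and -4.63 at 6h50 min. The groups were far apart and the fall was 9.52-fold (log2 -3.25 ± 0.26 SE, limma adjusted p = 6.97e-08). In mock the change was -1.54 ± 0.26, and the difference of -1.71 had an unadjusted p of 9.95e-05 and an adjusted p of 0.374.

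FOSB, a partner of JUN proteins in AP-1, gave -3.32, -1.97 and -2.0 at 2h25 min, where replicate 1 was the lowest, and -5.77, -6.08 and -5.73 at 6h50 min. Its fall was 10.8-fold (log2 -3.43 ± 0.69 SE, limma adjusted p = 0.000883), and at 6h50 min it was above background on 2 of 3 arrays. The mock change was -1.79 ± 0.69 with an adjusted p of 0.0503.

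For FOS, the best known immediate early gene, the arrays gave -0.93, -0.74 and -1.16 and then -2.69, -3.04 and -3.55. The groups did not overlap, and FOS fell 4.44-fold (log2 -2.15 ± 0.64 SE, limma adjusted p = 0.0143) but lost the call without pollen 6h50 min replicate 3 (adjusted p = 0.0526).

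EGR4, a zinc finger factor, was not well above background on any pollen array of 6h50 min and had fallen at least 2-fold (levels of -5.66 ± 0.30 and -8.13 ± 1.03, SD, n = 3, limma adjusted p = 0.00348). It was not well above background on any mock array of 6h50 min either, so the sizes of its changes in pollen and mock cannot be compared. MYC, which drives growth and ribosome production, went from 3.91, 3.74 and 3.47 to 2.45, 2.49 and 2.54. All 3 arrays of 6h50 min lay below those of 2h25 min, with a fall of 2.32-fold (log2 -1.21 ± 0.21 SE, limma adjusted p = 0.000204) against a mock change of -0.22 ± 0.21 with an adjusted p of 0.425. The difference of -0.99 between these changes had a limma adjusted p of 0.747. The 13 members that did not pass ranged from -1.45 to 0.52. Named after their values were seen, NR4A1 had -1.45, JUN 0.50 and ATF3 0.52.

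**Figure D2:**
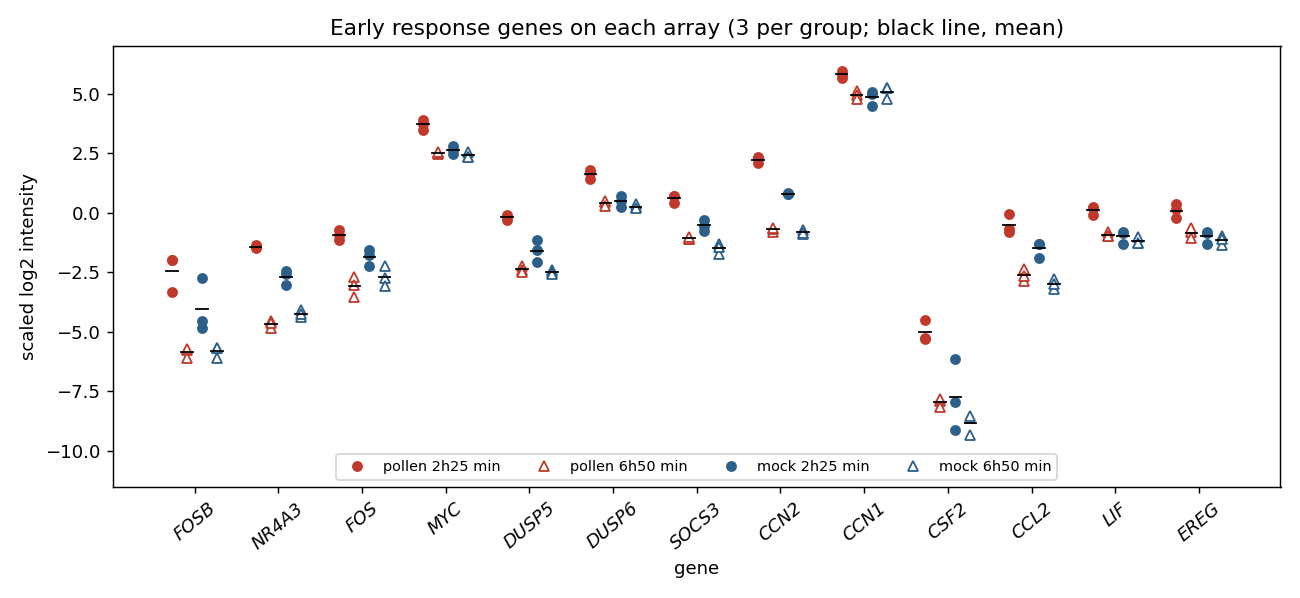
Scaled log2 intensity (vertical axis) of 13 early response genes (horizontal axis) on each array of pollen and mock at 2h25 min and 6h50 min, with 3 points per group and a black line at their mean. The pollen arrays of 2h25 min lie above those of 6h50 min for every gene shown, for NR4A3 from -1.48 to -1.35 against -4.82 to -4.56.

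Feedback regulators of MAP kinase and cytokine signalling followed the transcription factors. Of 32 tested members 18 fell (56.2%, against 20.6% of all genes) by 0.46 to 2.18 and 1 rose, SOCS2, at 0.60. All 18 lay on separate sides in every array, all 18 had a pollen change below the mock change, and 7 of them fell in mock too. The list median was -0.57 in pollen and -0.26 in mock. A downward difference between the changes at an unadjusted p under 0.05 was seen for 10 members (31.2%, against 2.11% of all genes). The members DUSP5, DUSP6 and SOCS3 are named by the study for 2h25 min on these samples, so this count is no independent evidence. The count of falls was 7 with the percentile over all probes of each array, where 9.11% of all genes fell, and 10 with the replicate number as a block, where 9.6% did.

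DUSP5, a nuclear phosphatase that inactivates ERK, had levels of -0.18, -0.09 and -0.31 at 2h25 min and -2.22, -2.40 and -2.48 at 6h50 min. These groups lie far apart, and the fall was 4.52-fold (log2 -2.18 ± 0.24 SE, limma adjusted p = 3.25e-06). In mock DUSP5 fell as well, by 0.90 ± 0.24.

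DUSP6, the cytoplasmic ERK phosphatase, moved from 1.66, 1.78 and 1.40 to 0.44, 0.48 and 0.29. It fell 2.31-fold (log2 -1.21 ± 0.16 SE, limma adjusted p = 1.91e-05), while mock gave -0.23 ± 0.16 with an adjusted p of 0.29. The excess of DUSP6 over mock was 1.13 at 2h25 min and 0.14 at 6h50 min.

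SOCS3, which blocks signalling from the IL-6 family of receptors, gave 0.70, 0.72 and 0.41 and then -1.1, -1.09 and -1.03. The arrays of 6h50 min were tight (SD 0.04), and the fall was 3.21-fold (log2 -1.68 ± 0.15 SE, limma adjusted p = 2.49e-07) against -0.96 ± 0.15 in mock. SPRY4, an inhibitor of receptor tyrosine kinase signals, fell by 1.09 ± 0.23 and ERRFI1, which binds and silences the EGF receptor, by 1.01 ± 0.13. A second probe of SPRY4 gave -0.29. DUSP1, which acts on p38 and JNK, fell by 1.08 ± 0.34 and lost the call without pollen 2h25 min replicate 1 (adjusted p = 0.0564), and SOCS2 lost its call without pollen 2h25 min replicate 3 (adjusted p = 0.0941) and without pollen 6h50 min replicate 2 (adjusted p = 0.0527).

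The list of YAP and SRF targets held the 1 gene whose change over the interval differed between pollen and mock after correction. CCN2, a matricellular protein secreted on stretch and TGF-beta, had levels of 2.33, 2.30 and 2.07 at 2h25 min and of -0.81, -0.67 and -0.62 at 6h50 min. All 3 arrays of 6h50 min lay far below, with a fall of 7.62-fold (log2 -2.93 ± 0.12 SE, limma adjusted p = 4.55e-13). In mock the fall was 1.61 ± 0.12. The difference between the changes was -1.32 ± 0.17 (limma adjusted p = 0.00298), the single gene called (0.00408% of 24512 genes, 0 genes in the upward direction), while 1796 of the 32100 probes had an unadjusted p under 0.05. This call was kept with any 1 array left out and with the slide as a block (adjusted p = 0.00386), and was lost in the fit of the 12 arrays alone (adjusted p = 0.0939) and with the percentile taken over all probes of each array (adjusted p = 0.916), where the difference was -1.32 and -1.37. The percentile setting kept pollen 55 min replicate 1, which was on another array design. The call was also lost with the replicate number as a block (-1.32, adjusted p = 0.556). Mock and pollen arrays of the same number deviated together at 2h25 min (r of 0.60, 0.47 and 0.57) and not at 6h50 min (0.06, 0.20 and -0.02).

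CCN1, a matricellular relative of CCN2, gave 5.95, 5.8 and 5.66 at 2h25 min and 5.09, 4.96 and 4.76 at 6h50 min. These groups did not overlap, and CCN1 fell 1.82-fold (log2 -0.86 ± 0.20 SE, limma adjusted p = 0.00231), while in mock the change was 0.23 ± 0.20. The difference of -1.09 had an unadjusted p of 0.00065 and a limma adjusted p of 0.747. VCL, which links actin to adhesion sites, fell by 0.64 ± 0.13 and LATS2, a kinase that restrains YAP, by 0.61 ± 0.14. Their mock changes were -0.39 ± 0.13 and 0.03 ± 0.14. Of 26 tested members 6 fell (23.1%) and 1 rose, with a median of -0.28 in pollen and -0.23 in mock, so that the share of the list was close to that of all genes. The member that rose, the LIM protein FHL2 at 0.36 ± 0.13, lost its call without replicate 1 (adjusted p = 0.112) or 3 (0.0767) of pollen 2h25 min and without replicate 2 (0.116) or 3 (0.117) of pollen 6h50 min, and its other probes gave -0.41 and 0.11.

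**Figure D3:**
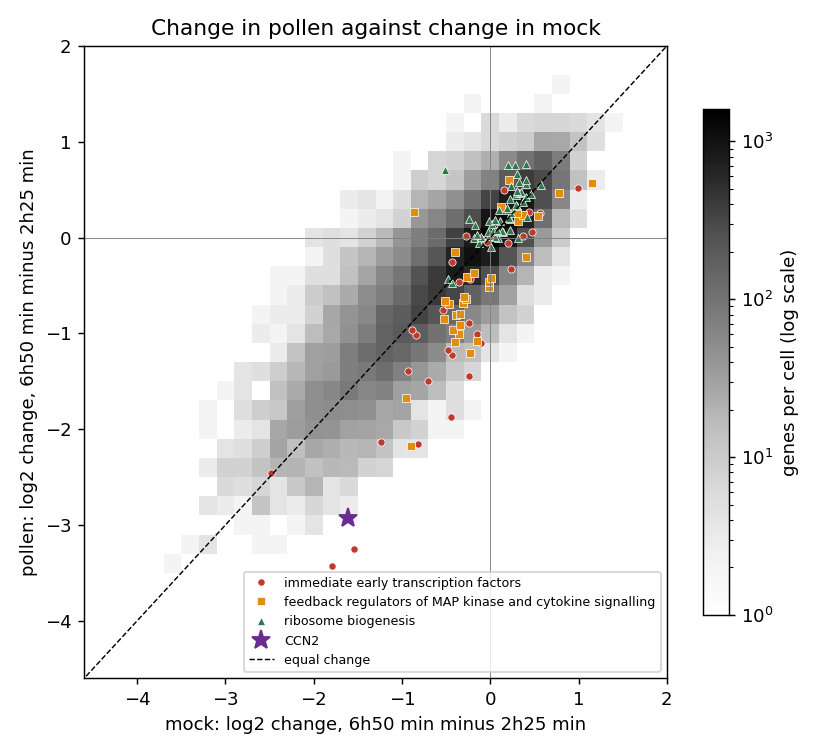
Log2 change from 2h25 min to 6h50 min in pollen (vertical axis) against mock (horizontal axis), with the number of genes per cell in grey on a log scale and coloured points for 3 gene lists and CCN2. Most genes lie near the line of equal change, and 28 of 33 immediate early factors lie below it; 6 genes fall outside the axes.

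Cytokines and chemokines held some of the larger falls among the listed genes. Of 34 tested members 9 fell (26.5%, against 20.6% of all genes) and 3 rose, with a median of -0.40 in pollen and -0.35 in mock. The falls went from 0.76 to 2.95, the latter that of CSF2, whose level at 6h50 min was not well above background. CSF2 and IL7R are among the 9 and carry a limit given below, so the share is not read as a result about the list. Of the 9 that fell, 7 also fell in mock. CSF2, the growth factor of granulocytes and macrophages also known as GM-CSF, gave -5.30, -4.48 and -5.24 at 2h25 min and -7.90, -7.80 and -8.16 at 6h50 min, where it was not well above background on any array. It had fallen at least 3.15-fold. CSF2 was well above background on 3 pollen arrays and 1 mock array of 2h25 min and on 0 mock arrays of 6h50 min. A gene tested because it was above background in the group where it is high is favoured as a fall, so no p-value is given. CCL2, which recruits monocytes, went from -0.80, -0.04 and -0.67 to -2.88, -2.34 and -2.67. Its groups lay apart, with a fall of 4.36-fold (log2 -2.13 ± 0.25 SE, limma adjusted p = 5.66e-06) and a mock change of -1.49 ± 0.25. CCL20, which attracts dendritic cells and Th17 cells, fell by 2.07 ± 0.50 against -1.33 ± 0.50 in mock. IL7R, a receptor subunit shared by IL-7 and TSLP, fell at least 1.59-fold to a level below background. IL7R was well above background on 3 pollen arrays of 2h25 min and on 0 mock arrays of either time, so the limit given for CSF2 may apply. LIF, a cytokine of the IL-6 family, fell by 1.04 ± 0.18 against -0.20 ± 0.18 in mock, where a difference of -0.83 had an unadjusted p of 0.00425.

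Among the cytokine genes that rose, IL23A, a subunit of IL-23, gained 0.79 ± 0.18 and GDF15, a stress cytokine, 0.68 ± 0.20, and both rose in mock as well, by 0.64 and 0.93. GDF15 lost its call without pollen 2h25 min replicate 2 (adjusted p = 0.0988). IL4R, a receptor chain for IL-4 and IL-13, was called at 0.43 ± 0.12 on its brightest probe, but its other probes gave -1.54 and -1.19, and the call was lost without pollen 2h25 min replicate 3 (adjusted p = 0.0687) or pollen 6h50 min replicate 2 (adjusted p = 0.0517). The epithelial alarmins did not pass. TSLP had levels of -6.65, -7.22 and -6.28 and then -5.76, -5.67 and -5.98, a change of 0.91 ± 0.39 with a limma adjusted p of 0.077, and 0.82 ± 0.39 in mock. The TSLP groups did not overlap, and the call was made after quantile normalization (adjusted p = 0.0247). IL33 gave 0.24 ± 0.57 and was near background at both times, and IL25 had no tested probe. IL1B gave -0.50 ± 0.23 with a limma adjusted p of 0.11, which was 0.0278 without pollen 2h25 min replicate 3. IL24, a cytokine of the IL-10 family, gave -0.67 ± 0.42 in pollen, with 2 of 3 arrays of 6h50 min above background, and in mock it was above background on 2 of 3 arrays of 2h25 min and on 0 of 6h50 min.

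Ligands and growth factors gave 4 falls (18.2%, against 20.6% of all genes) and 1 rise (4.55%, against 11.5%) among 22 genes. The list median was -0.39 in pollen and -0.18 in mock. INHBA, which encodes a subunit of activin A, had -3.20, -2.69 and -3.87 at 2h25 min and -5.02, -4.75 and -5.82 at 6h50 min. It fell 3.85-fold (log2 -1.95 ± 0.29 SE, limma adjusted p = 6.89e-05), and its mock change was -1.33, or -1.80 with the dim areas of the mock arrays left out. EREG, a ligand of the EGF receptor, went from 0.36, 0.14 and -0.22 to -0.82, -1.06 and -0.62. The arrays did not overlap, and EREG fell by 0.92 ± 0.20 (limma adjusted p = 0.00197) against -0.16 ± 0.20 in mock. HBEGF, another ligand of that receptor, fell by 0.84 ± 0.25 and lost the call without pollen 6h50 min replicate 3 (adjusted p = 0.0971). PDGFB fell by 1.20 ± 0.21. The mock changes were -0.05 ± 0.25 for HBEGF and -0.75 ± 0.21 for PDGFB. The receptor ERBB2 rose by 0.36 ± 0.11, and its call was lost without pollen 6h50 min replicate 2 (adjusted p = 0.0666) or replicate 3 (adjusted p = 0.0686).

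Regulators of NF-kB, the factor that switches on inflammatory genes, had shares of calls near those of all genes. Of 26 members 5 fell (19.2%, against 20.6% of all genes) and 2 rose (7.69%, against 11.5%), with a median of -0.13 beside -0.12 for all genes. ZC3H12A, a ribonuclease that degrades cytokine RNAs, fell by 1.32 ± 0.24 and MAP3K8 by 1.07 ± 0.14. Both fell in mock too, with changes of -0.90 ± 0.24 and -0.95 ± 0.14. NFKB1, the p50 precursor, fell by 0.68 ± 0.12 against -0.09 ± 0.12 in mock. TNFAIP3, an enzyme that ends NF-kB signals, fell by 0.90 ± 0.29 against -0.80 ± 0.29 in mock. It lost the call without pollen 2h25 min replicate 1 (adjusted p = 0.0566) or 2 (0.0655) and without pollen 6h50 min replicate 2 (0.0744) or 3 (0.0592). TNIP2, a ubiquitin-binding partner of it, moved the other way, from -1.05, -0.41 and -0.53 to -0.02, 0.21 and -0.05. The 6h50 min arrays were all higher, and TNIP2 rose by 0.71 ± 0.18 (limma adjusted p = 0.00548) while the mock change was 0.00 ± 0.18. The difference had a limma adjusted p of 0.781. TRAF2, an adaptor of the TNF receptors, was called at 0.32 and lost the call without replicate 2 (adjusted p = 0.103) or 3 (0.0963) of pollen 2h25 min or of pollen 6h50 min (0.147 and 0.0622).

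Targets of the glucocorticoid receptor, 9 of 16 of which fell (56.2%, against 20.6% of all genes) and 0 rose, had a median of -0.49 in pollen and -0.33 in mock, and 7 of the 9 fell in mock too. DUSP1 and ERRFI1 are in this list and among the feedback regulators. SGK1, a kinase that promotes sodium transport, fell by 1.25 ± 0.15 (limma adjusted p = 7.32e-06), from -0.96, -0.17 and -0.73 to -1.89, -1.90 and -1.82. Its groups lay apart, and it fell by 0.95 ± 0.15 in mock.

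Circadian genes had shares near those of all genes, with 4 falls (21.1%, against 20.6%) and 3 rises (15.8%, against 11.5%) among 19 genes. NR1D1, a repressor of the clock, fell by 1.42 ± 0.18, the deubiquitinase USP2 by 2.44 ± 0.28, DBP by 0.67 ± 0.12 and PER1 by 0.64 ± 0.13. In mock these 4 genes fell too, and the pollen and mock changes of DBP were -0.67 and -0.71. USP2 was well above background on 2 of 3 arrays at 6h50 min and had a second probe at -0.55. BMAL1, the activator of the clock, was called at 0.41 ± 0.10 on its brightest probe while another gave -1.24. BMAL2 rose by 0.60 ± 0.15 and the repressor CRY2 by 0.38 ± 0.09.

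Feedback genes of TGF-beta and BMP signalling fell in 6 of 13 cases (46.2%, against 20.6% of all genes). The list medians were -0.38 in pollen and -0.39 in mock. SMAD7, which blocks the TGF-beta receptor, went from -1.53, -1.21 and -1.75 to -2.61, -2.61 and -2.54. It fell by 1.09 ± 0.13 (limma adjusted p = 6.6e-06), and by 0.84 ± 0.13 in mock. LTBP2, a matrix protein of microfibrils, fell by 1.58 ± 0.36 against -1.33 ± 0.36 in mock. ID1, an inhibitor of differentiation factors, fell by 1.21 ± 0.33 against -0.60 ± 0.33 in mock. The call of ID1 was lost without pollen 2h25 min replicate 2 (adjusted p = 0.0556). TGIF1, a corepressor of SMAD proteins, fell by 0.98 ± 0.16 against -0.08 ± 0.16 in mock.

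ANGPTL4, a secreted inhibitor of lipoprotein lipase and a target of PPAR, hypoxia and glucocorticoids, kept its distance to mock. Its pollen levels were 2.87, 3.80 and 2.42 at 2h25 min and 1.34, 1.78 and 1.82 at 6h50 min, without overlap. The fall in pollen was 2.61-fold (log2 -1.39 ± 0.34 SE, limma adjusted p = 0.00401) and the change in mock was also -1.39 ± 0.34, so that the excess over mock was 1.98 ± 0.34 at 2h25 min and 1.99 ± 0.34 at 6h50 min. ANGPTL4 was the 1 gene called in pollen against mock at both times, among 11 genes higher at 2h25 min (0.0449% of 24512) and 9 higher at 6h50 min (0.0367%), of which 4 were called with the dim areas left out. Of the 11 genes higher at 2h25 min, 9 fell in pollen by 6h50 min. These comparisons use the same 2h25 min pollen arrays and are not independent of the falls.

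Lipid and sugar metabolism had shares of falls near that of all genes, 20.6%. Of 34 genes of cholesterol and fatty acid synthesis 6 fell (17.6%) and 0 rose, among them the desaturase FADS2 by 0.90 ± 0.22, with a second probe at -0.22. Of 31 genes of hypoxia and glycolysis 8 fell (25.8%) and 0 rose, 7 of the 8 in mock too. MXI1, an antagonist of MYC, fell by 1.27 ± 0.12 and also fell in mock, and CA9, a carbonic anhydrase, fell by 0.92 ± 0.26 with a call that was lost without pollen 2h25 min replicate 2 (adjusted p = 0.0611). HILPDA, a lipid droplet protein in the PPAR list, rose by 0.76 ± 0.09 (limma adjusted p = 3.78e-06), from 2.19, 2.18 and 2.06 to 2.74, 2.91 and 3.05. Every array of 6h50 min was higher, and the mock change was 0.50 ± 0.09. Metallothioneins and zinc transporters gave 2 falls among 14 genes in pollen (14.3%, against 20.6% of all genes). In mock 8 fell, where 22.8% of all genes did, and the medians were -0.40 in pollen and -0.77 in mock. The zinc exporter SLC30A1 fell by 0.51 ± 0.09, and MT1G was well above background on 2 of the 3 arrays of 2h25 min and on 0 of 6h50 min.

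The lists with the most rises were those of ribosome biogenesis, DNA replication and the unfolded protein response. Of 50 tested genes of ribosome biogenesis 22 rose (44%, against 11.5% of all genes) by 0.29 to 0.77 and 2 fell, and for 21 of the 22 the groups did not overlap. Of the 22, 12 rose in mock as well, and the median change was 0.20 in pollen and 0.20 in mock. An upward difference between the changes at an unadjusted p under 0.05 was seen for 1 member (2%, against 3.24% of all genes). The list was above background on all 6 pollen arrays throughout, where 14.6% of all genes rose. The count was 4 with the percentile over all probes of each array, where 4.08% of all genes rose. It was 13 in the fit of the compared arrays alone, where 6.54% did, and 3 with the replicate number as a block, where 1.52% did.

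RRP12, a factor of small subunit export, gave -0.72, -0.29 and -0.45 at 2h25 min and 0.35, 0.34 and 0.15 at 6h50 min. It rose 1.70-fold (log2 0.77 ± 0.20 SE, limma adjusted p = 0.00561), and the mock change was 0.40 ± 0.20. PPAN rose by 0.76 ± 0.21 and PES1, a scaffold of the large subunit precursor, by 0.76 ± 0.20, against 0.20 and 0.28 in mock with adjusted p-values of 0.478 and 0.284. PES1 had levels of -1.28, -0.66 and -1.01 and then -0.19, -0.15 and -0.32, with all arrays of 6h50 min above those of 2h25 min. MRTO4 rose by 0.70 ± 0.24 and lost the call without replicate 2 (adjusted p = 0.0654) or 3 (0.0799) of pollen 2h25 min or replicate 1 (0.0522), 2 (0.0792) or 3 (0.06) of pollen 6h50 min. Its mock change was -0.51 on arrays with dim areas and 0.41 with these left out. UTP20 and TSR1 were the 2 members that fell, by 0.47 ± 0.13 and 0.43 ± 0.14. TSR1 had another probe at 0.28 and lost its call without pollen 2h25 min replicate 1 (adjusted p = 0.112), pollen 6h50 min replicate 1 (0.119) or pollen 6h50 min replicate 3 (0.0649), and UTP20 without pollen 2h25 min replicate 1 (0.0781).

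Of 39 genes of DNA replication 11 rose (28.2%, against 11.5% of all genes) and 4 fell (10.3%, against 20.6%). The list median was 0.12 in pollen and 0.08 in mock. CDC6, which loads the replicative helicase, went from -2.48, -2.72 and -2.68 to -1.86, -1.99 and -1.71. The groups lay apart, and CDC6 rose 1.71-fold (log2 0.77 ± 0.16 SE, limma adjusted p = 0.000996). The transcription factor E2F2 rose by 0.57 ± 0.10, GINS3 by 0.51 ± 0.11 and the histone chaperone subunit CHAF1A by 0.48 ± 0.10. RFC3, a clamp loader subunit, fell by 0.69 ± 0.16, with a second probe at -0.12, and MCM10 was called at -0.29 ± 0.10 but lost the call without replicate 1 (adjusted p = 0.11) or 3 (0.0994) of pollen 2h25 min or replicate 1 (0.0521), 2 (0.0744) or 3 (0.0703) of pollen 6h50 min. Genes of mitosis gave 14 falls (31.8%, against 20.6% of all genes) and 2 rises among 44, with a median of -0.12 in pollen, equal to that of all genes, and -0.04 in mock. The kinesin KIF20A fell by 1.02 ± 0.17, and UBE2C, a ubiquitin carrier of the anaphase-promoting complex, rose by 0.79 ± 0.11 (limma adjusted p = 3.31e-05), from 4.88, 4.56 and 4.54 to 5.35, 5.57 and 5.42. Both moved the same way in mock, by -0.74 and 0.68.

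The unfolded protein and integrated stress response had 8 rises (25%, against 11.5% of all genes) and 4 falls (12.5%, against 20.6%) among 32 genes. The list medians were 0.14 in pollen and 0.26 in mock. SDF2L1, a chaperone of the endoplasmic reticulum, had levels of 5.00, 4.83 and 4.91 and then 5.53, 5.63 and 5.89, all higher at 6h50 min. It rose 1.71-fold (log2 0.77 ± 0.15 SE, limma adjusted p = 0.000757), against 0.22 ± 0.15 in mock. HSPA5, the chaperone BiP, rose by 0.68 ± 0.20 and its partner DNAJB11 by 0.65 ± 0.11, and their mock changes were 0.74 and 0.72. HSPA5 lost its call without pollen 2h25 min replicate 2 (adjusted p = 0.0962) or pollen 6h50 min replicate 3 (adjusted p = 0.0569). DDIT3, the stress factor CHOP, fell by 0.46 ± 0.14 and lost its call without pollen 2h25 min replicate 1 (adjusted p = 0.108), pollen 2h25 min replicate 3 (0.053) or pollen 6h50 min replicate 3 (0.0557). Of 20 heat shock chaperones 4 rose (20%, against 11.5% of all genes) and 1 fell (5%, against 20.6%). The mitochondrial chaperonin HSPD1 rose by 0.53 ± 0.12 and HSPA4 by 0.54 ± 0.13, with a second HSPA4 probe at -0.01. HSPA1B was called at 0.62 and lost the call without replicate 1 or 3 of pollen 2h25 min or replicate 2 or 3 of pollen 6h50 min (adjusted p of 0.0665, 0.14, 0.124 and 0.0792). DNAJB1 was called at -0.69, and leaving out any 1 of the 6 pollen arrays ended the call (adjusted p up to 0.138). Its pollen levels were 1.12, 1.31 and 0.94 and then 0.43, 0.42 and 0.45, without overlap. The mock arrays of 6h50 min, 2 of them dim at this probe, gave -1.33, -0.56 and 0.49 and enter the shared SE. The mock change was -1.40, or -0.44 with the dim areas left out.

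**Figure D4:**
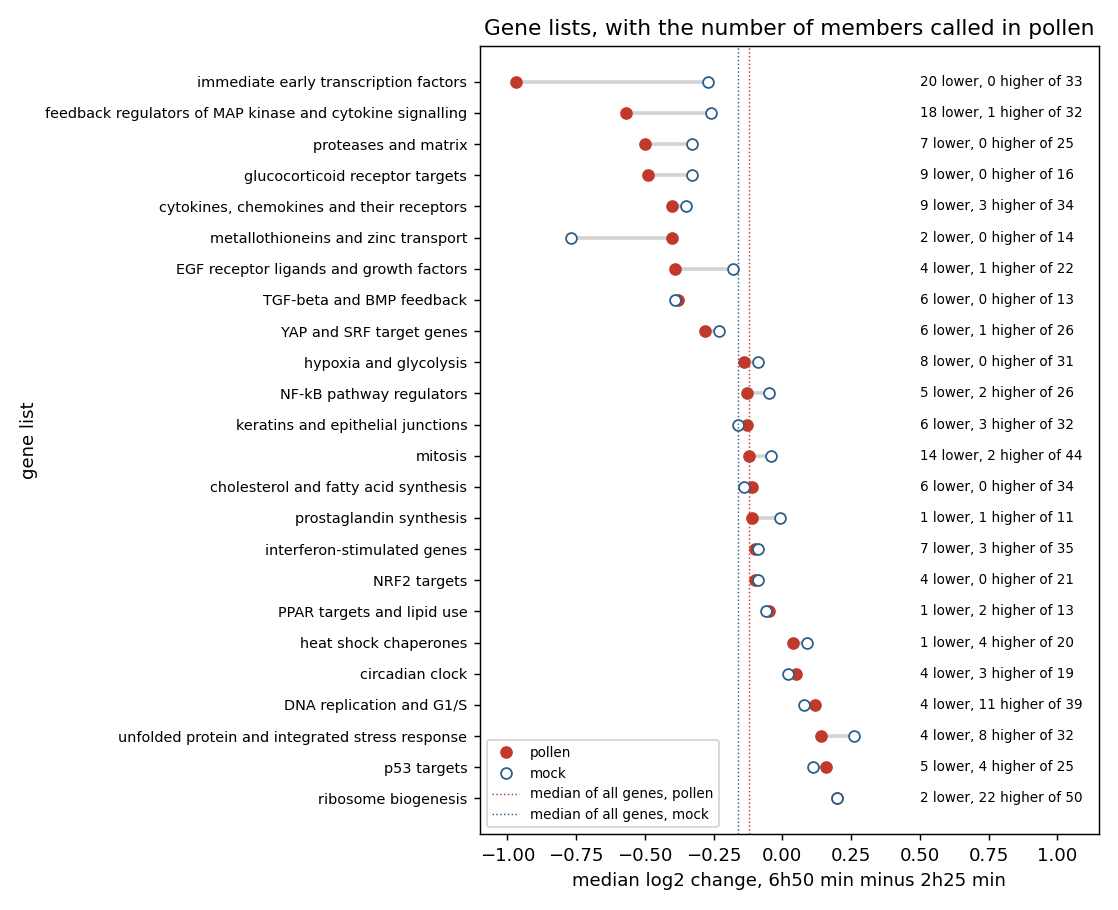
Median log2 change from 2h25 min to 6h50 min (horizontal axis) of 24 gene lists (vertical axis) in pollen (filled) and mock (open), with the number of members that fell and rose in pollen at the right and dotted lines at the median of all genes. Immediate early transcription factors lie lowest in pollen at -0.97 with -0.27 in mock, and ribosome biogenesis lies highest in pollen at 0.20, with 0.20 in mock.

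The remaining lists are set beside the 20.6% of all genes that fell and the 11.5% that rose. Of 35 interferon-stimulated genes 7 fell (20%) and 3 rose (8.57%). The guanylate-binding proteins GBP2 and GBP1 fell by 1.59 ± 0.22 and 0.93 ± 0.12, while STAT2 rose by 0.53 ± 0.13. GBP2 and GBP1 fell in mock too, with changes of -1.43 ± 0.22 and -0.34 ± 0.12. Of 21 targets of the oxidant sensor NRF2 4 fell (19%) and 0 rose. Of 25 p53 targets 5 fell (20%) and 4 rose (16%), and PLK2 fell by 0.68 ± 0.19 against -0.08 ± 0.19 in mock, with a call that was lost without pollen 2h25 min replicate 1 (adjusted p = 0.0572). Of 25 proteases and matrix genes 7 fell (28%) and 0 rose, 6 of the 7 in mock too, with a median of -0.50 beside -0.12 for all genes and -0.33 in mock. Of 32 keratins and junction genes 6 fell (18.8%) and 3 rose (9.38%), and of 11 genes of prostaglandin synthesis 1 fell and 1 rose (9.09% each).

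The genes that the study names for its times were chosen by it on these samples, so their counts are no independent evidence of a direction. Of the 13 named for 2h25 min 10 fell in pollen and 0 rose, their median excess over mock was 1.1 at 2h25 min and 0.24 at 6h50 min, and for all 13 the pollen change lay below the mock change. Those that did not pass were F3, PIM1 and IL1B. F3, the tissue factor of coagulation, gave -0.33 ± 0.14 and was called without pollen 2h25 min replicate 3 (adjusted p = 0.0287). Of the 16 named for 6h50 min 1 was called in pollen over the interval, IL4R, and 12 of the 16 probes lay in a dim area on a mock array of 6h50 min. PGF, a relative of VEGF, had pollen levels of 0.40, 0.42 and 0.36 at 2h25 min and 0.06, 0.33 and 0.28 at 6h50 min, a change of -0.17 ± 0.19, while its mock change was -0.99 and with the dim areas left out -0.40. SLC25A4, the mitochondrial ADP/ATP carrier, gave -0.05 ± 0.17 in pollen and -0.86 in mock, or -0.23 with the dim areas left out. ICAM1, the adhesion receptor for leukocytes, gave -0.17 ± 0.14 in pollen, from 1.86, 1.72 and 1.74 to 1.62, 1.55 and 1.63, and SOD2, the mitochondrial superoxide dismutase, -0.06 ± 0.17. TGFB1I1, a focal adhesion protein, gave 0.50 ± 0.26 in pollen and -0.45 in mock, or 0.44 in mock with the dim areas left out. Its pollen change was called with the dim areas left out, with array weights, and in the fits of the compared arrays or the 15 pollen arrays alone.

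The largest falls of all included genes at background at 6h50 min in both exposures. LIPN, a lipase of the epidermis, had levels of -2.18, -2.21 and -2.77 at 2h25 min and fell at least 19-fold to a level not well above background on any array of 6h50 min (limma adjusted p = 0.000389). It was not well above background on any mock array of 6h50 min either, so the sizes of its pollen and mock falls cannot be compared. Over both exposures LIPN lay between -8.46 and -6.71 on the 6 arrays of 6h50 min, and between -3.45 and -2.63 on the 6 arrays of 24 h. Among the 55 min arrays it stood at -7.49 on pollen replicate 1, which was hybridized to another array design, and between -2.92 and -1.43 on the other five. LMO7DN fell at least 8.62-fold in pollen, and the calcium pump ATP2B2 at least 2.78-fold. The levels of LMO7DN were -8.62 to -6.61 at 6h50 min and -3.95 to -3.02 at 24 h, those of ATP2B2 -9.20 to -8.25 and -5.94 to -4.85, and ATP2B2 was also low at 10 min (-8.57 to -6.23). ACTL8, an actin-like protein, fell by 3.41 ± 0.94, with a second probe at -1.31, and its mock change was -4.22 ± 0.94. The arrays of 24 h were on a slide that also held arrays of 2h25 min.

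The largest rises among genes with a RefSeq name were smaller than the falls. RNA5-8SN5, a 5.8S ribosomal RNA gene, rose by 1.64 ± 0.47, from 1.05, 2.60 and 1.61 to 2.96, 3.84 and 3.38, and mock gave 0.09 ± 0.47. Its call was lost without pollen 2h25 min replicate 1 (adjusted p = 0.0663) or pollen 6h50 min replicate 2 (adjusted p = 0.0594), and as a repeated gene with near-identical copies its value is uncertain. GADD45G, a growth arrest gene, rose by 1.42 ± 0.37 and by 1.46 ± 0.37 in mock, and lost its call without pollen 6h50 min replicate 2 (adjusted p = 0.051). NEURL1, a ubiquitin ligase of Notch signalling, rose 2.56-fold (log2 1.36 ± 0.17 SE, limma adjusted p = 8.5e-06), from -1.59, -1.97 and -1.78 to -0.50, -0.48 and -0.29. SIN3B, a scaffold of histone deacetylases, went from 2.87, 2.91 and 2.68 to 3.95, 4.07 and 4.06. Both genes had all arrays of 6h50 min on top, and SIN3B rose 2.31-fold (log2 1.21 ± 0.11 SE, limma adjusted p = 2.49e-07) with 1.00 ± 0.11 in mock. HOXB9 rose by 1.29 ± 0.42 against 0.02 in mock, or 0.30 with dim areas left out, and lost its call without replicate 1 (adjusted p = 0.0693) or 2 (0.0888) of pollen 2h25 min or replicate 2 (0.0645) or 3 (0.0567) of pollen 6h50 min.

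Arrays of other times, which share no array with the interval, are set beside these changes. They do share slides with it. Pollen 55 min replicates 2 and 3 lay on the slide of pollen 2h25 min replicates 1 and 2. The 24 h arrays lay on the slide of pollen 2h25 min replicate 3, and the pollen 10 min arrays on another slide. Time and slide cannot be told apart in the counts that follow. In pollen 117 genes rose from 10 min to 55 min (0.477% of all), and 73 of these (62.4%, which is 1.44% of those that fell) then fell from 2h25 min to 6h50 min, against 20.6% of all genes. Among the immediate early factors 13 had risen at 55 min and 10 of the 13 then fell. Of the 2816 genes that rose by 6h50 min 1110 (39.4%) were also higher at 24 h than at 10 min, 28.3% of that list, against 16% of all genes. For ribosome biogenesis 19 of 50 were higher at 24 h than at 10 min, 11 of them among the 22 that rose.

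The mean pollen level of NR4A3 was -4.63 at 10 min and -1.38 at 55 min, then -1.42 at 2h25 min and -4.67 at 6h50 min and finally -4.53 at 24 h, so that the level of 6h50 min lay within 1 SD of that at 10 min. In the same order DUSP5 had -2.60, 0.02, -0.19, -2.37 and -1.76. CCN2 ran through 0.76, 2.81, 2.23, -0.70 and -2.18 and ended below its level at 10 min, as it did in mock (0.82 at 10 min and -1.78 at 24 h). MYC peaked at 3.71 at 2h25 min and stood at 2.49 at 6h50 min, within the range of the mock means of 2.29 to 2.75. ANGPTL4 had 1.65 at 6h50 min and -0.22 at 24 h in pollen, and -0.34 and -0.89 in mock.

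**Figure D5:**
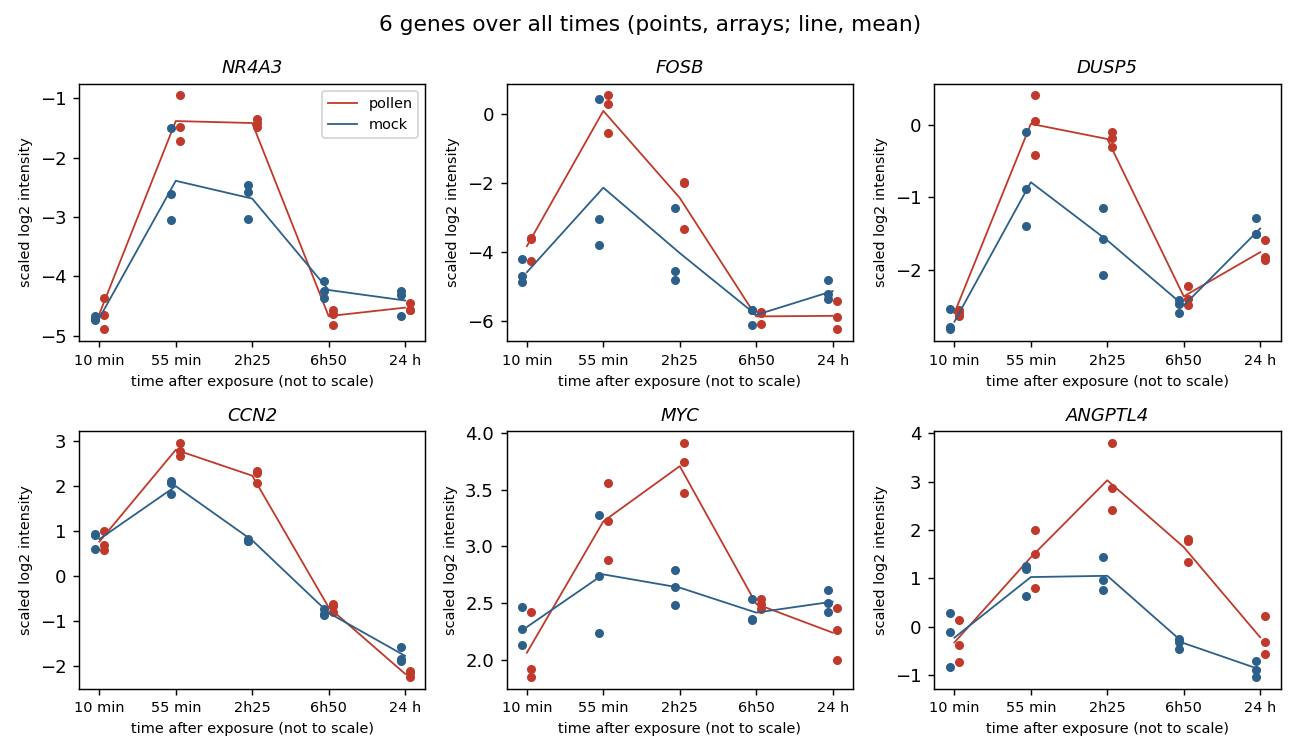
Scaled log2 intensity (vertical axes) of 6 genes at 5 times after exposure (horizontal axes, not to scale) in pollen and mock, with 1 point per array and a line through the means. NR4A3, FOSB and DUSP5 in pollen fall between 2h25 min and 6h50 min to levels near those of mock, and ANGPTL4 stays above mock at 6h50 min with 1.65 against -0.34.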

How the data were processed

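RNA of BEAS-2B cells was hybridized to one-colour Agilent SurePrint arrays, and the authors deposited the scanner output of Agilent Feature Extraction 11.0.1.1, in which the processed signal is a spot intensity after background subtraction. A second deposited file, of log2 values, had columns that followed the brightness of their arrays (a rank correlation of 1) with medians of 5.69 to 5.70 and whose scaling is not given in the sources used here. No file held unmapped measurement columns. Control spots and outlier flags were left out, replicate spots were averaged per probe, and the log2 intensity was reduced by the 75th percentile over the 33873 probes shared by both designs, since pollen 55 min replicate 1 was on another design (42405 probes against 58201). The fit took the 32100 probes, for 24512 gene names, that Feature Extraction marked well above background throughout the 3 arrays of some group. R 4.3.3, limma 3.58.1 (lmFit and eBayes, 10 group means, 30 arrays, 20 residual degrees of freedom) and data.table (version 1.17.8) were used, after the code had been tested on simulated data. With 3 arrays in each group, precision is limited by their number. Per the methods, exposures were repeated independently on different days.

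Of the probes 33536 were named through their RefSeq accession, 4609 through the gene name in the file, and 20056 kept the name in the file. Where a probe was not above background on any array of a group, the fold is a lower bound, from the mean of the brighter group against the higher of the lowest signal well above background and the probe's own level. Genes were named as the 15 largest changes in each direction among called genes with separate arrays, the up to 4 largest per list and direction, the genes the study names, ANGPTL4 and the alarmins IL33, IL25 and TSLP. The members and lists were chosen with earlier results of these data known. Alternatives covered scaling, background correction, the deposited log2 table, filters, the arrays fitted, array weights, slide and replicate blocks, dim areas, defined as blocks of 16 by 16 spots with a median deviation under -0.3, and each array left out. The settings by quantile, normexp, deposited table and cyclic loess left out the array of the other design. The setting with the percentile over all probes of each array kept it. The all-array filter and the cyclic loess were chosen after seeing the data. Some members of the lists are not reported here by name.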

Additional observations from a re-analysis of the deposited data

Results flagged for a closer look

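CCN2 stood out because its change from 2h25 min to 6h50 min differed between pollen and mock, by -1.32 on the log2 scale (limma adjusted p = 0.00298). The pollen change was -2.93 and the mock change -1.61. All 3 pollen arrays of 2h25 min lay above all mock arrays of that time, with means of 2.23 and 0.79, and at 6h50 min the means were -0.70 and -0.82.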

How the results depend on the processing

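Of the 112 genes followed through the alternatives, none that was called changed sign, and none became called in the opposite direction. For 46 the call status changed in no setting, and 29 lost their call when some array was left out. Changes of genes that were not called could take both signs. IL33 ranged from -0.46 to 0.81, SLC25A4 from -0.14 to 0.02 and SOD2 from -0.16 to 0.01. The most lost their call with the replicate block (50), the percentile over all probes (40) and the slide as a random block (24). With the percentile over all probes of each array 1286 probes rose and 2673 fell in pollen, 1262 and 2813 in mock, 0 differed between the changes (570 at an unadjusted p under 0.05), and the ribosome median was 0.28. Quantile normalization gave medians of -0.82 for immediate early factors and -0.46 for feedback regulators. After normexp and quantile normalization 5693 probes rose in mock, 2 differed (CCN2 and CHMP4B), and the medians were -0.46 and -0.37. The deposited table gave 5758, 2, -0.47 and -0.40. In the fit of the compared arrays alone 2039 rose in pollen, 1146 rose and 4563 fell in mock, and 0 differed. Array weights gave 40 differences (34 higher, 6 lower) and medians of -0.83 for immediate early factors and 0.28 for ribosome biogenesis. With the slide as a random block (correlation 0.21) 1969 rose and 3533 fell in pollen, 1673 and 3924 in mock, and the immediate early median was -0.86. Of the settings chosen after seeing the data, the filter on all 12 arrays left 3843 falls in pollen and 4245 in mock and a median of -0.61, and cyclic loess gave 4818 rises in mock and medians of -0.83 and -0.47. Same-numbered pollen arrays of the 2 times did not deviate together (r of -0.09, 0.00 and 0.10). With the replicate number as a block 504 rose and 2913 fell in pollen, 260 and 3262 in mock, 0 differed, and CCN2 had an adjusted p of 0.556. Mock and pollen arrays of 2h25 min with the same number did deviate together (0.47 to 0.60). Leaving out 1 array gave 2458 to 3156 rises and 4472 to 5966 falls in pollen, 1773 to 3149 and 4124 to 6859 in mock, and 1 to 249 differences, the 249 without air 6h50 min replicate 3 (237 higher, 12 lower). The lowest mock counts came without air 2h25 min replicate 2. List medians then ranged from -0.96 to -0.77, from -0.63 to -0.53 and from 0.20 to 0.26. Over 20 settings 11 to 21 immediate early factors fell, 7 to 20 feedback regulators fell, and 3 to 26 ribosome biogenesis genes rose. Dim probes limit the precision.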
